A study of Homo sapiens with 2 samples.

Results

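The 10 ubiquitous nuclear subunits of cytochrome c oxidase (COX, respiratory complex IV) were taken as a fixed list of genes, namely COX4I1, COX5A, COX5B, COX6A1, COX6B1, COX6C, COX7A2, COX7B, COX7C and COX8A, out of 19794 protein-coding genes with an annotated coding transcript start. All 10 were found in the annotation. NRF-1 occupancy at their promoters was read from peak lists of chromatin immunoprecipitation in cells of the U251 line, which was established from a human glioblastoma. One population had received a control siRNA (siControl) and the other an siRNA that targets AATF (siAATF), a cofactor of transcription. Both transfections were transient, in a single line and with 1 AATF oligonucleotide, and the series text names U138 where each sample label names U251. The experiment was described as a duplicate, but 1 list per condition was analysed here, so no value below has a replicate error and no test between conditions was made. The number of reads behind each list is unknown. A peak list gives no RNA or protein level, so neither the depletion of AATF nor the identity of the cells could be checked from it.

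Cytochrome c oxidase passes electrons from cytochrome c to oxygen and pumps protons across the inner mitochondrial membrane. Its catalytic subunits are encoded by mitochondrial DNA, while the subunits described here are encoded in the nucleus, surround the catalytic core and must be made in step with it. NRF-1 and the ETS-family factor GABP, also called NRF-2, are known regulators of nuclear genes for respiratory chain proteins, and promoters of several COX subunits are classical targets of both.

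Of the 10 genes, 9 had a peak within 1 kb of a coding transcript start in siControl, and the same 9 had one in siAATF. COX7B was the exception in both lists. Over all coding genes, the share with such a peak was 61.1% in siControl, 60.7% in siAATF and 59.5% in both lists. With 10 genes, 1 gene more or less moves the share of the family by a large step. Each of the 9 genes had exactly 1 promoter peak in each list, and none had a further peak between its annotated ends.

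The sequence before the start is shown for 5 members that span the range of occupancy. COX5B and COX6A1 held the NRF-1 core and had strong peaks, COX7C had a strong peak without the core, COX8A had a weak peak, and COX7B had none. The 250 bases before the canonical start are printed 5′ to 3′ on the strand of the gene, from hg19, at chr2:98262275-98262524 for COX5B, chr12:120875666-120875915 for COX6A1, chr5:85913508-85913757 for COX7C, chr11:63741842-63742091 for COX8A and chrX:77154715-77154964 for COX7B, each on the plus strand. Capitals in runs of 10 mark the core with up to 1 mismatch, that is GCGCA followed directly by its reverse complement, and capitals in runs of 7 mark the ETS word CCGGAAG or its reverse complement. A further ETS word in COX5B crosses the start, runs past the printed bases and is left in lower case.
COX5B: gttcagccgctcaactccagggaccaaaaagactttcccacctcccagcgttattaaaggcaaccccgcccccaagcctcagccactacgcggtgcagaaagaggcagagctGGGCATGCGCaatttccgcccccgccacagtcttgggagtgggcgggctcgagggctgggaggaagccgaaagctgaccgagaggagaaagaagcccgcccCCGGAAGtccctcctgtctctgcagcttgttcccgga
COX6A1: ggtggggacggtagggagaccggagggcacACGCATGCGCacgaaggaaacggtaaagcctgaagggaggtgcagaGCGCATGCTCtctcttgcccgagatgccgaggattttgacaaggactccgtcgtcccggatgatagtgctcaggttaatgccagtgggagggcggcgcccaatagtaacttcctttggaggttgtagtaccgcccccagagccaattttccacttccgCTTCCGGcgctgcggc
COX7C: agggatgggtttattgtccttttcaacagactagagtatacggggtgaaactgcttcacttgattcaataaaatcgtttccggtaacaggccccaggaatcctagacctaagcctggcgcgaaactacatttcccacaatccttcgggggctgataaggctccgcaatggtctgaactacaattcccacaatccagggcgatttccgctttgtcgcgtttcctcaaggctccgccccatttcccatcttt
COX8A: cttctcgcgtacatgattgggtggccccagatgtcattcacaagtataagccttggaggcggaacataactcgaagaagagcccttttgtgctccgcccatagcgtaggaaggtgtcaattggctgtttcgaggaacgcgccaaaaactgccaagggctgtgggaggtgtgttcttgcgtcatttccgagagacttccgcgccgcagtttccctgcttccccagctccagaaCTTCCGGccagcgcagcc
COX7B: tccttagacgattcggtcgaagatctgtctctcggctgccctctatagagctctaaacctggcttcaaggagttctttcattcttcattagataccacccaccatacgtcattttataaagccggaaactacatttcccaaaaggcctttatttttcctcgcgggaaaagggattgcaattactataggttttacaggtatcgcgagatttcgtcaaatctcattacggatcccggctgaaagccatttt

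The peaks were compared by fold enrichment over the local background of the same library and by −log10 q. Because each library has its own background, peaks were ranked by percentile within their list, the weakest at 0 and the strongest at 100. In siControl the 9 peaks fell into a strong set of 5 genes, with ranks of 81.5 to 93.4, and a weak set of 4 genes, with ranks of 16.3 to 36.5. No member ranked between these sets. The siAATF list gave the same sets of 5 and 4 genes, with ranks of 79.8 to 93.4 and of 20.9 to 43.1. The median rank of the 9 members was 81.5 in siControl and 79.8 in siAATF, beside medians of 63.4 and 64.4 over all coding genes with a promoter peak. Over all coding genes with a promoter peak, a rank above 75 was held by 34.8% (siControl) and 35.6% (siAATF), and a rank below 50 by 33.9% and 32.7%. Among the members these counts were 5 and 4 of 9 in each list.

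**Figure D1:**
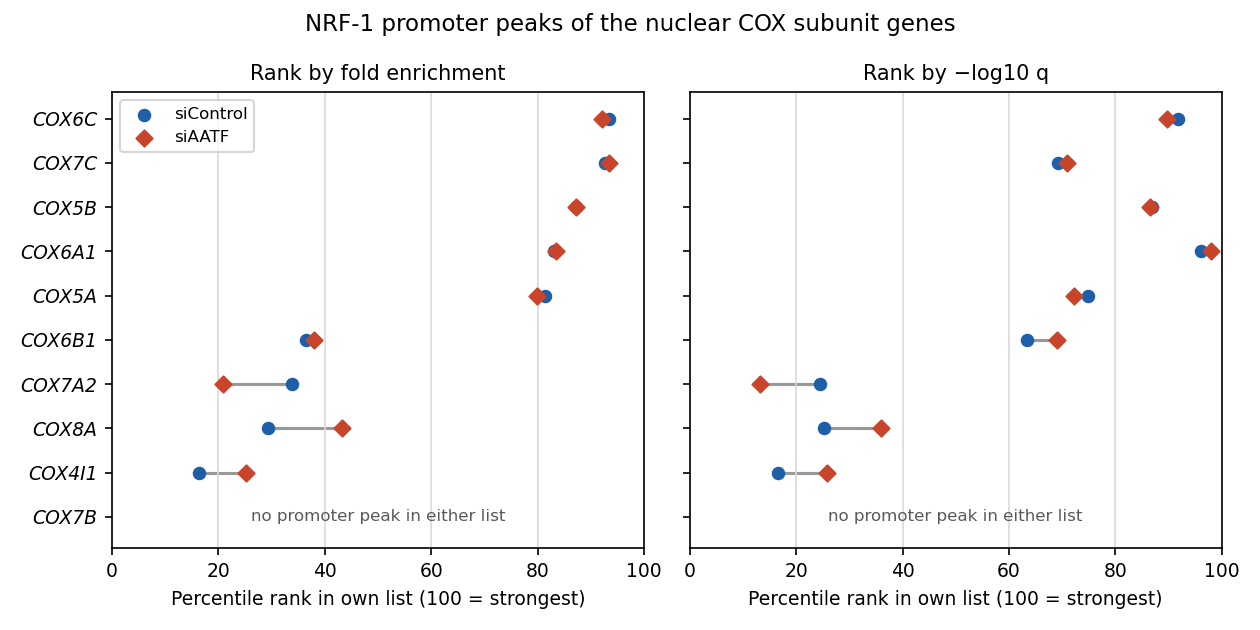
Percentile rank of each promoter peak in its own list (x axis, 0 to 100) for the 10 genes, by fold enrichment on the left and by −log10 q on the right, with circles for siControl and diamonds for siAATF, and 1 list per condition. COX6C, COX7C, COX5B, COX6A1 and COX5A stand above rank 75 by fold enrichment in both lists, while COX6B1, COX7A2, COX8A and COX4I1 stand below 50 and COX7B has no peak.

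COX5A and COX5B are matrix-facing subunits, and COX5B binds zinc. Both belonged to the strong set. The COX5A peak on chromosome 15 spanned 75229884 to 75230801 in siControl, with a fold enrichment of 8.10, a −log10 q of 28.4 and rank 81.5. In siAATF it spanned 75229859 to 75230742, with a fold enrichment of 7.55, a −log10 q of 23.02 and rank 79.8. All 6 coding starts of COX5A lay inside the peak in both lists.

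The COX5B peak on chromosome 2 changed least of the 9 in rank by fold enrichment within the whole list, while among coding promoter peaks COX6A1 changed least, by −0.12 points against −0.42 for COX5B. It spanned 98261904 to 98262878 in siControl, with a fold enrichment of 8.58, a −log10 q of 54.3 and rank 87.3. Its counterpart in siAATF spanned 98261914 to 98262861, with a fold enrichment of 8.10, a −log10 q of 47.9 and rank 87.2. The siAATF peak lay wholly within the siControl peak, of which it made up 97.2%.

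COX4I1 encodes the largest nuclear subunit, a membrane-spanning protein through which adenine nucleotides regulate the enzyme. Its peak was wide and weak. On chromosome 16 it spanned 85832826 to 85833923 in siControl, a width of 1098 bp, with a fold enrichment of 3.95, a −log10 q of 2.91 and rank 16.3. In siAATF it spanned 85832950 to 85834049, a width of 1100 bp, with a fold enrichment of 4.27, a −log10 q of 3.88 and rank 25.2. By width alone the peak ranked 87.1 and 86.6, so the lowest fold enrichment of the family in siControl came with the widest peak. The promoter is bidirectional. A coding start of EMC8, which encodes a subunit of the membrane protein insertase of the endoplasmic reticulum, lies at −87 bp from the COX4I1 start on the other strand, and a single peak served both genes in each list, so the signal cannot be divided between them.

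COX6B1 is the subunit that faces the intermembrane space and joins the monomers of the dimer. Its peak on chromosome 19 spanned 36138863 to 36139469 in siControl, with a fold enrichment of 4.96 and rank 36.5, and 36138784 to 36139411 in siAATF, with a fold enrichment of 4.90 and rank 38.02. Its −log10 q of 16.7 (siControl) and 19.8 (siAATF) ranked 63.3 and 69.0, so COX6B1 was low by fold enrichment but above the middle of the list by −log10 q. Only 1 of its 5 coding starts, the canonical one, was covered.

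The remaining subunits are small proteins with a single membrane helix, and their promoters ran from the highest fold enrichment of the family to no called peak. COX6C on chromosome 8 had the highest fold enrichment of the family in siControl, 9.25, with a −log10 q of 67.6 and rank 93.4, at 100905427 to 100906283. In siAATF its fold enrichment was 8.55, its −log10 q 55.8 and its rank 92.03, at 100905453 to 100906295. COX7C on chromosome 5 stood beside it, with a fold enrichment of 9.15 and rank 92.6 at 85913554 to 85914191 in siControl, and 8.70 and rank 93.4 at 85913500 to 85914208 in siAATF. The COX7C peak was narrower, 638 bp and 709 bp, and its −log10 q of 21.7 and 21.6 ranked only 69.2 and 70.9. COX6A1 on chromosome 12 had the highest −log10 q of the family, 78.5 at 120875260 to 120876243 in siControl and 76.9 at 120875245 to 120876235 in siAATF, which ranked 96.01 and 97.9. By fold enrichment, 8.23 and 7.80, it ranked 83.1 and 83.4. Its peak also covered the start of a coding gene listed only as ENSG00000111780, on the same strand 85 bp after the COX6A1 start.

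COX7A2 and COX8A had weak peaks that moved in opposite directions. The COX7A2 peak on chromosome 6 spanned 75953348 to 75953861 in siControl, with a fold enrichment of 4.81, a −log10 q of 3.84 and rank 33.8, and 75953292 to 75953743 in siAATF, with 4.08, 2.51 and rank 20.9. The COX8A peak on chromosome 11 spanned 63741991 to 63742579 in siControl, with a fold enrichment of 4.57, a −log10 q of 3.93 and rank 29.3, and 63741936 to 63742520 in siAATF, with 5.18, 5.48 and rank 43.1. COX8A was the only member to cross a −log10 q of 5 between the lists. At that stricter threshold 6 members remained in siControl and 7 in siAATF, beside 51.4% of all coding genes in each list. COX4I1 and COX7A2 were under the threshold in both lists.

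COX7B, on the X chromosome with its canonical start at 77154965, had no peak within 1 kb of any of its 4 coding starts, nor within 2 kb. The nearest peak in siControl lay 3.64 kb before the canonical start, at 77150866 to 77151322 with rank 65.03, and in siAATF 3.56 kb before it, at 77150761 to 77151404 with rank 58.9. Both were at the promoter of MAGT1, a magnesium transporter gene. A list that holds only peaks above a threshold gives no level for COX7B, so its occupancy was not detectable in these lists rather than shown to be 0.

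The question of the study, whether AATF depletion affects NRF-1 at genes of the respiratory chain, was examined for the family only as the change in rank from siControl to siAATF. A rank within a list cannot show a change in occupancy shared by all peaks of that list. Fold enrichment itself was higher in siAATF at COX4I1 and COX8A and lower at the other members with a peak. Its median over the whole list was 5.82 in siControl and 5.59 in siAATF. Whether occupancy changed as a whole was not tested. The median change in rank over the 9 genes was 0.23 points, beside 0.16 points over the 11774 coding genes with a promoter peak in both lists. The sign of the median for the members depended on the ranking. It was −0.22 points with peaks of −log10 q of at least 5, −0.12 points ranked among coding promoter peaks and 1.67 points ranked by −log10 q. Of the 9 members 4 ranked lower in siAATF and 5 higher, or 5 lower among coding promoter peaks, beside 48.9% of all such genes that ranked lower. No member changed by more than 20 points, as 6.55% of all such genes did. The 5 members of the strong set changed by −1.65 to 0.71 points. COX5B changed by −0.06 points, COX6A1 by 0.23, COX7C by 0.71, COX6C by −1.41 and COX5A by −1.65. In the weak set COX6B1 changed by 1.55 points, COX4I1 by 8.87, COX7A2 by −12.97 and COX8A by 13.8. Larger changes among weak peaks were also seen over all coding genes. The median absolute change was 8.05 points for genes with a siControl rank of 0 to 25 and 7.09 points for those of 25 to 50, but 3.60 points for those of 75 to 100. For 90% of genes the absolute change stayed under 23.6 points in the lowest of these classes, under 19.96 points from 25 to 50 and under 11.9 points in the highest. The changes of all 9 members lay inside these limits for their class.

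**Figure D2:**
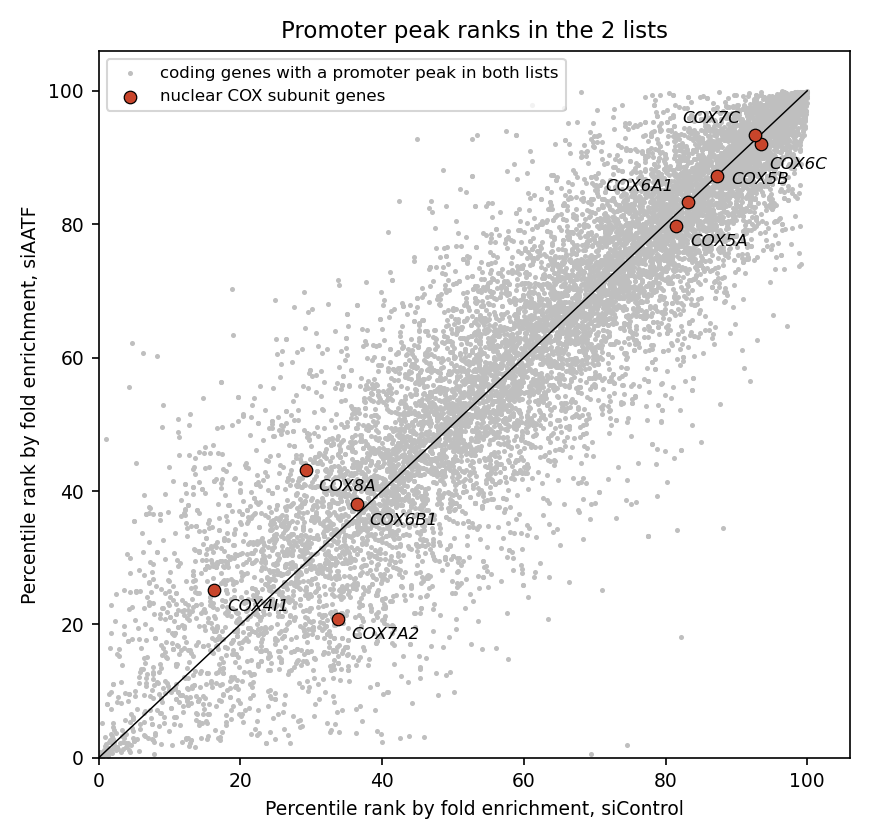
Percentile rank by fold enrichment of the strongest promoter peak in siControl (x axis) and siAATF (y axis) for 11774 coding genes in grey, with the 9 members that have a peak in red and the line of equal rank in black. The 5 strong members lie on or next to the line, and COX8A, COX4I1 and COX7A2 lie off it within the cloud of grey points.

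The order within the family was read from both scales. By fold enrichment it ran COX6C, COX7C, COX5B, COX6A1, COX5A, COX6B1, COX7A2, COX8A and COX4I1 in siControl, and COX7C, COX6C, COX5B, COX6A1, COX5A, COX8A, COX6B1, COX4I1 and COX7A2 in siAATF. By −log10 q the first 7 places, COX6A1, COX6C, COX5B, COX5A, COX7C, COX6B1 and COX8A, were the same in both lists, and COX7A2 and COX4I1 changed places at the end. Neighbours such as COX6C and COX7C, 0.80 points apart in siControl, exchanged places between the lists, and without replicates no gap between neighbours can be set against an error. The widest gap between neighbours was 45.0 points in siControl, between COX5A and COX6B1, and 36.7 points in siAATF, between COX5A and COX8A. Both gaps were picked from these same lists, and both were larger than any change of a member between the lists. By −log10 q COX5A and COX6B1 were not set apart in this way. COX5A, COX7C and COX6B1 ranked 74.9, 69.2 and 63.3 in siControl and 72.2, 70.9 and 69.0 in siAATF, and the next member, COX8A, ranked 25.3 and 35.9.

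The peaks sat on the promoter itself. In both lists all 9 covered the canonical start and the whole of the first exon and ended beyond it. The peaks reached the second exon for COX6A1 alone. They extended 101 to 656 bp before the start in siControl, the shortest being COX8A and the longest COX6A1. The start codon lay inside the peak for COX5A, COX5B, COX6A1, COX7A2, COX7C and COX8A in both lists, while in COX4I1, COX6B1 and COX6C, where the first exon is untranslated, it lay 1511 to 2921 bp after the start and outside the peak. Peak midpoints differed between the lists by 3.5 bp for COX5B to 125.0 bp for COX4I1, with a median of 42.0 bp, beside 32.5 bp over the 11562 coding genes whose strongest promoter peaks overlapped. The overlap made up 0.695 to 0.977 of the joint span, with a median of 0.900, beside 0.897 for those coding genes. COX7A2 had the lowest of these values and COX6A1 the highest.

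**Figure D3:**
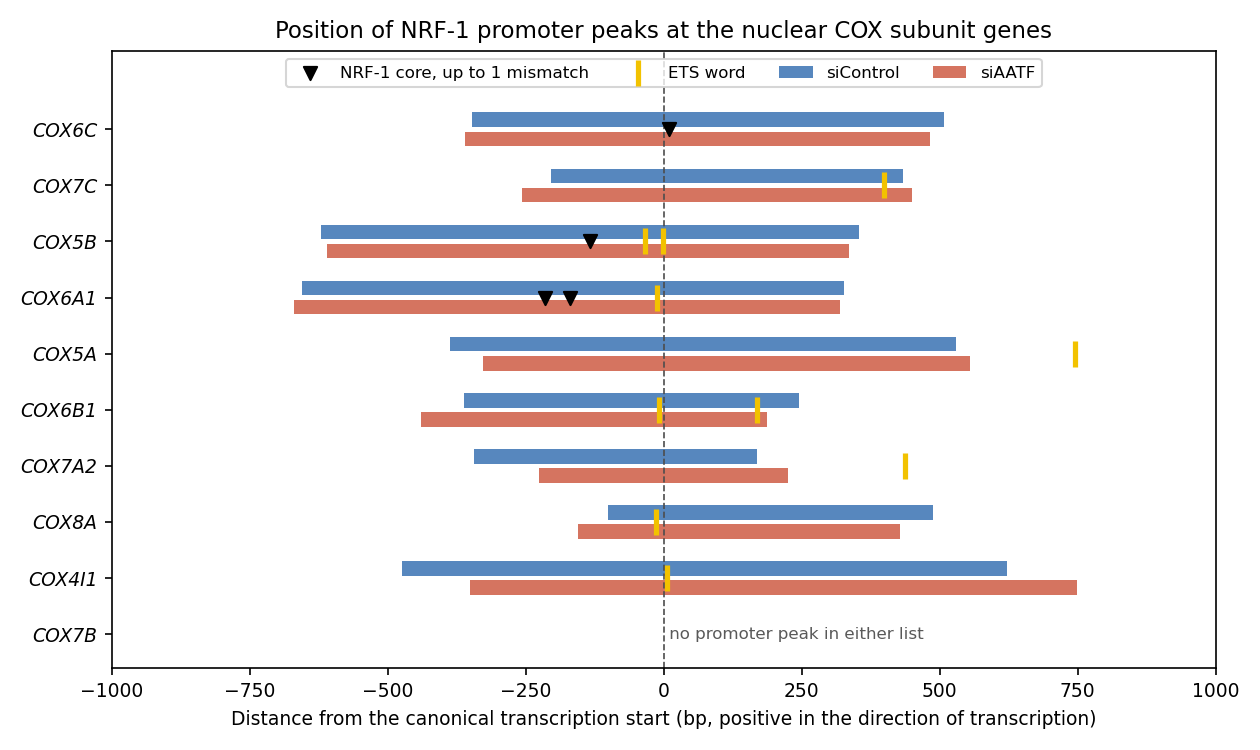
Extent of the promoter peak of each gene in siControl (blue bars) and siAATF (red bars), by distance from the canonical transcription start in bp (x axis), with triangles at NRF-1 cores with up to 1 mismatch and yellow marks at the ETS word. Each of the 9 pairs of bars covers the start, cores appear at COX6C, COX5B and COX6A1 alone, COX7B has neither bar nor mark, and the marks of COX5A and COX7A2 lie outside their bars.

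Sequence under the peaks was searched for the NRF-1 core, a palindrome of 10 letters, on both strands. No member peak held the core without mismatch, beside 3.89% in siControl and 3.96% in siAATF of all coding genes with a promoter peak. With up to 1 mismatch it was present at COX5B, COX6A1 and COX6C, that is in 3 of 9 member peaks in each list, beside 23.9% in siControl and 24.0% in siAATF of all coding genes with a promoter peak. These 3 genes belonged to the strong set, and the 3 highest −log10 q ranks of the family in each list were theirs. Genes were counted here, so a peak shared by several genes counts once for each. Of all coding genes whose siControl promoter peak had a −log10 q rank of 75 or above, 57.9% had the core at up to 1 mismatch in it. The share was 6.26% for those of 50 to 75. COX5A and COX7C, the other strong members, had −log10 q ranks of 69.2 to 74.9, in the latter class. By fold enrichment, the scale that separates the strong and weak sets, the shares were 41.1% at a rank of 75 or above and 23.6% from 50 to 75, and both genes were in the former class.

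The cores are shown with 15 bases on either side, 5′ to 3′ on the plus strand of hg19, which is the strand of both genes. They lie at chr2:98262372-98262411 for COX5B and at chr12:120875681-120875720 and chr12:120875727-120875766 for the distal and the proximal core of COX6A1. Capitals mark the 10 letters of the core.
COX5B: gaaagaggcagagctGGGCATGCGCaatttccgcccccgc
COX6A1 distal: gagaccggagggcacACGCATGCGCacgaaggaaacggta
COX6A1 proximal: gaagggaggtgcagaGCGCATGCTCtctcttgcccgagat

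Counted from 1 at the 5′ end of the core, with the base of the searched core first, COX5B differed by C2G, the distal core of COX6A1 by G1A and its proximal core by G9T. The COX5B core was centred 0.5 bp from the midpoint of the siControl peak and 4.0 bp from that of the siAATF peak. The proximal core of COX6A1 was centred 5.0 bp and 6.5 bp from these midpoints, and the distal core 51.0 bp and 39.5 bp. The core of COX6C began 5 bp after the transcription start, in the first exon, and its centre was 70.5 bp and 51.5 bp from the midpoints. Over all promoter peaks with such a core, the nearest core was a median of 58.0 bp from the midpoint in siControl and 55.3 bp in siAATF. With up to 2 mismatches the peaks of COX5A and COX6B1 were added, which made 5 of 9, beside 67.3% of all coding genes with a siControl promoter peak. The peaks of COX4I1, COX7A2, COX7C and COX8A had no match at 2 mismatches.

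The ETS word CCGGAAG, the letters bound by GABP and its relatives, was searched on both strands. It was found in the peaks of 6 of 9 members in each list, namely COX4I1, COX5B, COX6A1, COX6B1, COX7C and COX8A, beside 29.2% (siControl) and 29.6% (siAATF) of all coding genes with a promoter peak. In the window from 250 bases before to 50 after the canonical start it was found in 5 of 10 members, all of these but COX7C, beside 13.97% of 19794 coding promoters. In those 5 genes at least 1 copy lay within 20 bp of the start, as counted from its centre. No share over all coding promoters is set beside this distance, so it is not shown to be particular to the family. With the first transcribed base as 0, COX5B carried copies at −37 to −31 and −5 to 1. The nearest copy lay at −18 to −12 in COX8A, −16 to −10 in COX6A1, −12 to −6 in COX6B1 and 2 to 8 in COX4I1. COX5B and COX6A1 alone held both the NRF-1 core and the ETS word, and the words did not overlap the cores. Of the 6 genes, COX5B, COX6A1 and COX7C belonged to the strong set and COX4I1, COX6B1 and COX8A to the weak set. The word TGCGCA, a palindrome that runs 1 base past the end of the core in COX5B and of the distal core in COX6A1, was in the peaks of those genes and of COX7C, beside 29.9% of all coding genes with a promoter peak in each list. The YY1 word AAGATGGC was in no member peak, beside 8.47% in siControl. A match is a string of letters and not a measured site.

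Base composition was measured in the same window. The 9 members with a peak had a median GC content of 56.7%, beside 67.3% for coding genes with a siControl promoter peak and 55.3% for those without one. Their ratio of observed to expected CpG had a median of 0.868, beside 0.867 with and 0.345 without a peak. By fold enrichment in siControl, COX4I1, the weakest peak, had the highest GC content of the family, 71.0%, and COX6C, the strongest, had 47.7%. GC content did not separate the sets, since COX5A of the strong set had 70.7% and COX7A2 of the weak set 51.7%. COX7B had the lowest GC content of the 10 members, and its ratio of observed to expected CpG was 0.979, within the 0.664 to 1.18 of the members with a peak.

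The ubiquitous subunits have tissue-restricted counterparts, and these lists were set side by side. Of 6 such isoform genes, COX4I2, COX6A2, COX6B2, COX7A1, COX7B2 and COX8C, only COX6B2, the testis isoform of COX6B1, had a promoter peak, in both lists. It ranked 19.03 in siControl and 31.9 in siAATF, and its midpoint lay 682 bp and 624 bp after the canonical start, which the peak did not cover. COX4I2, the lung isoform, and COX6A2 and COX7A1, the heart and muscle isoforms, had no promoter peak in either list, and neither did COX7B2 and COX8C. The share of all coding genes with such a peak was 61.1% in siControl and 60.7% in siAATF. From 250 bases before to 50 after its canonical start, COX8C held 1 NRF-1 core with up to 1 mismatch, although it had no peak. Such a core was in 10.5% of all coding promoters. The GC content of the 5 promoters without a peak was 71.3% at COX4I2, 69.0% at COX7A1, 64.3% at COX8C, 52.0% at COX6A2 and 45.3% at COX7B2. Their ratio of observed to expected CpG was 0.629, 0.758, 0.383, 0.247 and 0.520 in the same order, beside 0.799 at COX6B2. The family also has 52 annotated pseudogenes named after 9 of the 10 members, all of them processed, that is copies of the transcript without the promoter, and 1 of them, COX5BP2, is annotated as transcribed. None of the 52 had a peak within 1 kb of its start or inside it in either list, beside 1.41% of 10087 processed pseudogenes not annotated as transcribed in siControl and 1.28% in siAATF.

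Nuclear genes that act on the same enzyme or next to it in the chain were counted in the same way. A list of 22 genes held complex IV assembly and copper or heme factors and also took in TACO1 and LRPPRC. All 22 had a promoter peak in both lists, with median ranks of 66.6 and 65.6, and 12 of them ranked lower in siAATF. All 10 genes for complex III subunits and cytochrome c had one too, with median ranks of 78.5 and 76.4, and 5 of them ranked lower in siAATF. No gene of either list changed by more than 20 points. As background, 59.5% of the 19794 coding genes were called near a start under both conditions. The median rank of coding genes with such a peak was 63.4 in siControl and 64.4 in siAATF. Of the 11774 genes called under both conditions, 48.9% ranked lower in siAATF and 6.55% changed by more than 20 points. In siControl 4 of 9 members and 7 of 22 genes of the assembly list had peaks below rank 50, as did 2 of 10 complex III and cytochrome c genes. Over all coding genes with a siControl promoter peak this share was 33.9%, and no difference between these lists was tested.

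**Figure D4:**
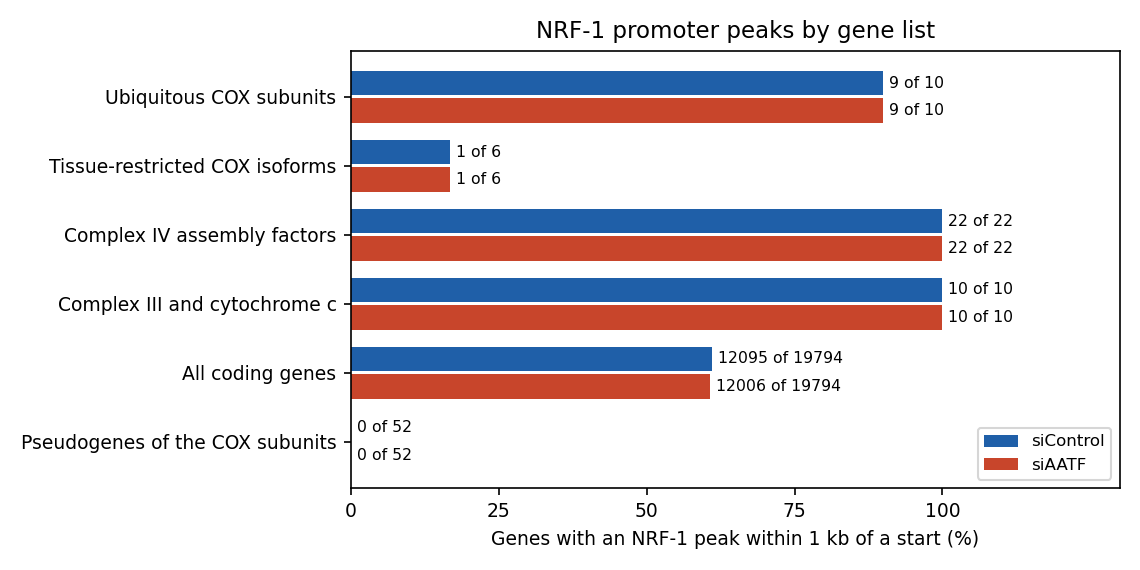
Share of genes with an NRF-1 peak within 1 kb of a start (x axis, percent) in siControl (blue) and siAATF (red), with the number of genes beside each bar. The ubiquitous subunits reach 9 of 10 genes in both lists and the tissue-restricted isoforms 1 of 6, and no pseudogene of the subunits has a peak.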

How the data were processed

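Libraries were made by ChIPmentation, in which Tn5 transposase adds the sequencing adapters to immunoprecipitated chromatin. Per the study's methods, reads were aligned to hg19 with Bowtie2 and broad peaks were called with MACS2 in a pipeline built for ATAC-seq, with default settings. No control library was named for peak calling, and whether the duplicate was pooled is not given in the sources used here. Settings meant for open chromatin handle reads around the Tn5 insertion point differently from those for ChIP, and this can displace the edges of peaks. Each deposited list gave start and end on hg19, a fold enrichment (a ratio over the local background, averaged over the peak), −log10 p and −log10 q, and a display score made from −log10 q, which, like −log10 p, was not used. The lists held 18014 siControl and 18454 siAATF peaks, with a lowest −log10 q of 1.03 and 1.02. The depth was unknown, so no interval on a level was computed.

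A promoter was the 1 kb on each side of a coding transcript's first base in GENCODE release 44 lifted to GRCh37, and a peak was assigned on an overlap of at least 1 base. A gene with several peaks was represented by that of highest fold enrichment. Distances are from the first transcribed base, and coordinates are 1-based. Sequence came from the GRCh37 primary assembly. Python 3.11.15, numpy 2.4.6, scipy 1.17.1 and matplotlib 3.10.9 were used, and overlap, ranks and word search were checked on made-up peaks. All 10 members were named, with the tissue-restricted isoforms, neighbours within 1 kb and any pseudogene with a peak. The members and lists were chosen with earlier results of these data known. Alternatives were other windows, starts, thresholds, ranks and mismatches.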

Additional observations from a re-analysis of the deposited data

How the results depend on the processing

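Across 9 results and 12 alternatives, values were recomputed with 1 choice changed at a time. Windows of 500 bp or 2 kb and the canonical start alone gave the main values for the 8 results on peaks and ranks and were not run for the core, and a peak midpoint inside the window gave 9 members in each list. With the 10000 strongest peaks of each list, which removes weak peaks by construction, 5 members had a promoter peak in siControl, 5 in siAATF and 5 in both. That is 5 of 10 members, beside 44.2% of all coding genes in siControl and 43.6% in siAATF, a smaller distance than in the main result. The median rank of the members in siControl was 78.2 with −log10 q of at least 5, 69.2 ranked by −log10 q and 76.5 among coding promoter peaks, and in siAATF 75.1, 70.9 and 73.9. The median change in rank turned to −0.22 points with −log10 q of at least 5, where 6 members were left in both lists. It turned to −0.12 points among coding promoter peaks and was 1.67 points by −log10 q. Its direction was thus not settled, and the cause was not tested. The core was in 0 members without mismatch and in 5 with up to 2. Depth was unknown, and 1 list per condition leaves AATF depletion and any other difference between the libraries impossible to tell apart.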

Other observations

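Of the proteins that accompany complex IV without belonging to the 10 ubiquitous subunits, NDUFA4, a subunit first assigned to complex I, and COX7A2L, which joins complexes III and IV into supercomplexes, had promoter peaks with a higher fold enrichment than any of the 9 member peaks in both lists. By −log10 q, at 41.7 and 37.2 for NDUFA4 and 50.1 and 50.8 for COX7A2L, they were below COX6A1 and COX6C in both lists. The NDUFA4 peak ranked 97.5 in siControl and 98.3 in siAATF by fold enrichment, and the COX7A2L peak ranked 98.0 and 99.6. The COX7A2L peak held 1 NRF-1 core with up to 1 mismatch, and the NDUFA4 peak held none. COX7A2L is a paralogue of COX7A2, whose own peak ranked 33.8 and 20.9.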
